A study of Mus musculus with 2 samples.

Results

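The regions described here are Brg1-bound islands that lie beside genes but not at their ends: 312 of the 5727 islands in the ChIP-seq list of 1 mouse medulloblastoma library (5.45%, Wilson 95% interval 4.89 to 6.07). An island, a stretch where ChIP reads are enriched, was counted as flanking by position alone. Its midpoint had to lie outside every RefSeq protein-coding gene, over 1 kb and up to 10 kb from the nearest end of one, and over 1 kb from the ends of every long non-coding RNA (lncRNA) gene. The lncRNA condition removed 51 of 363 candidates. The 312 held 24623 of the 472238 reads in islands (5.21%), lay on 20 chromosomes and covered 0.748 Mb. The tumour came from animals of genotype CAG-CreER, Rosa26-SmoM2, in which a ubiquitous promoter drives an inducible Cre and SmoM2 is a constitutively active Smoothened; the tumours were spontaneous, and no second genotype or treatment is compared here. The J1 antibody recognises Brg1 and its paralogue Brm, so an island can hold either ATPase. The library's input control is not analysed here, and how many tumours or animals were pooled is not given in the sources used here. There was 1 ChIP library, so no value carries an error between animals or a p-value: intervals on shares (Wilson) and on reads or rates (exact Poisson) are at 95% and cover counting error only, and differences between classes of islands were not tested.

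Brg1 is the ATPase of BAF (SWI/SNF) complexes, which slide and eject nucleosomes. Such complexes are recruited to promoters and to enhancers, the distal elements that can lie before, inside or past the gene they act on. Medulloblastoma of the Shh type arises from granule neuron progenitors of the cerebellum, whose identity is set by Atoh1, Zic and other transcription factors and whose division is driven by Hedgehog signalling. Position beside a gene does not show which gene an island acts on, so "flanked gene" below means only the nearest protein-coding gene.

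Because the class is defined by midpoints, wide islands can still reach the gene. Of the 312 flanking islands, 29 overlapped the flanked gene and 64 came within 1 kb of it. In 10 the island held the whole RefSeq promoter window of that gene (250 bases before to 50 after a start; build GRCm38.p6, which is mm10). The 3 of these with the most reads are shown, as flanking islands that hold a promoter window of the flanked gene. Promoter windows of lncRNA genes were reached too: 10 of the 312 islands overlapped one, and 7 of them held it whole. In the sequences, capitals mark matches to the motifs listed further on, which are descriptions and not sites.
Fosl2 (chr5:32136222-32136521, plus strand): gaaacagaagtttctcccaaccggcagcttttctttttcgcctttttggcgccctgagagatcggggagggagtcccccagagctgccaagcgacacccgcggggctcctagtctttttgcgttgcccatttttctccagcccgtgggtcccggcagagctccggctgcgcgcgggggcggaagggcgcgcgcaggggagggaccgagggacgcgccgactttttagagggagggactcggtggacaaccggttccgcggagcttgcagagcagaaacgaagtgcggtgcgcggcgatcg
Slain2 (chr5:72914112-72914411, plus strand): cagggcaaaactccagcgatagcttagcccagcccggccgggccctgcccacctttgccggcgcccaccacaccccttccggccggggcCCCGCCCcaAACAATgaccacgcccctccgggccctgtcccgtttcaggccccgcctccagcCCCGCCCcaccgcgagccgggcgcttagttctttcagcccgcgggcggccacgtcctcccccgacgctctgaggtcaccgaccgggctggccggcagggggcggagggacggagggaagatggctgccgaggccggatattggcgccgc
Spop (chr11:95413833-95414132, plus strand): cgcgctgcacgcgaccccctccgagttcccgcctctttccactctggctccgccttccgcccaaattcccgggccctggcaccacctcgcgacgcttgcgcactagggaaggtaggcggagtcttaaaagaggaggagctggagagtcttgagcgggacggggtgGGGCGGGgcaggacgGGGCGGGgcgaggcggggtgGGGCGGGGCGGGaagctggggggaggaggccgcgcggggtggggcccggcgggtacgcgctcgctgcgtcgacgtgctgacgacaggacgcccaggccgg
The Fosl2 window held none of the motifs. The Spop window held 4 matches to the SP/KLF motif, the last pair overlapping, and the Slain2 window 2, besides 1 match to the SOX motif. All were rich in CpG, with observed over expected ratios of 1.03 (Fosl2), 0.798 (Slain2) and 0.938 (Spop). Fosl2 encodes an AP-1 transcription factor, Slain2 a microtubule plus-end protein and Spop a ubiquitin ligase adaptor that acts on Gli proteins. Their islands held 165 reads (exact Poisson 95% interval 141 to 192), 153 (130 to 179) and 153 (130 to 179), and the start sites lay 1345, 1001 and 1197 bp from the midpoints.

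Some flanking islands also covered microRNA genes. These 4 islands (1.28%, Wilson 0.50 to 3.25) are shown by the mature RNAs of their 5-prime arms, or by the only mature RNA listed, with the seed (bases 2 to 8) in capitals; for miR-760 the 3-prime arm is given.
mmu-let-7i-5p: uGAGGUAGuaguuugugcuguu
mmu-miR-760-3p: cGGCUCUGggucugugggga
mmu-miR-195a-5p: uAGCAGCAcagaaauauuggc
mmu-miR-497a-5p: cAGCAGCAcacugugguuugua
mmu-miR-1953: uGGGAAAGuucucaggcuucug
miR-195a-5p and miR-497a-5p share the seed AGCAGCA and lie in 1 island of 68 reads (52.8 to 86.2) past the end of 0610010K14Rik (chromosome 11, 70232499 to 70235298), which also held Mir497b on the other strand. The let-7i gene lay within an island of 114 reads (94 to 137) whose midpoint was 5.92 kb from Mon2 (chromosome 10, 122984345 to 122987944), with its 5-prime arm 436 bp from the midpoint. The let-7 family is known as a brake on proliferation and stem cell factors. Mir760 lay within an island of 109 reads past the end of Dnttip2, and Mir1953 within one of 42 reads past the end of Fam110a. Among all other islands 32 of 5415 (0.591%, Wilson 0.419 to 0.833) held a microRNA gene.

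Flanking islands resembled the other islands in size. They held a median of 68 reads (interquartile range 54 to 87, lowest 28) over a median width of 2200 bp, and all other islands also had medians of 68 reads and 2200 bp. The read count is the authors' own value, not scaled for depth, and rises with width. Read density, the count per 200 bp, had a median of 6.5 in flanking islands (order-statistic 95% interval 6.36 to 6.71), equal to the 6.5 of islands over 10 kb from genes and above the 6.2 of gene-end islands (6.12 to 6.27) and the 6.16 of islands further inside genes. At equal width the difference was small. Islands of 2200 to 2600 bp held a median of 73 reads when flanking (n = 63) and 71 otherwise (n = 1309), and islands of 3400 to 3800 bp held 104.5 (n = 28) and 99 (n = 433).

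**Figure D1:**
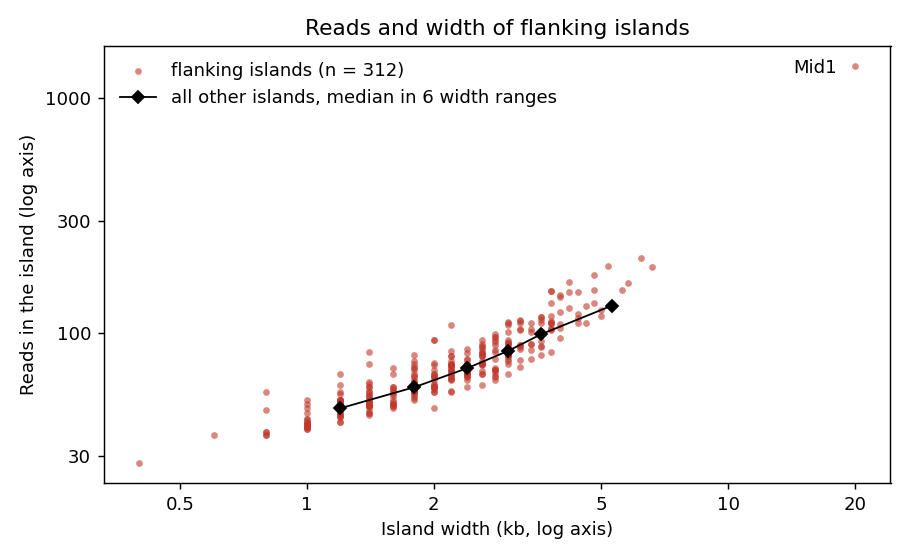
Each red point is 1 of the 312 flanking islands, with its width in kb and its reads on log axes; black diamonds join the median reads of all other islands in 6 width ranges. Flanking islands follow that line, and the island of 1367 reads and 20 kb near Mid1 stands apart.

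The 10 flanking islands with the most reads began with an exception. An island of 1367 reads on chromosome X (169988869 to 170008868), over and past the end of Mid1, was 20000 bp wide and had a density of 13.7, against a highest count of 209 and a highest width of 6600 bp in the other 311. What sets it apart was not tested. Chromosome X held 1 more flanking island, of 59 reads before the start of Magt1. The count of 209 reads (182 to 239) lay at Sox18, an endothelial transcription factor gene, with Tcea2 on the other side of the island. Then came Klf9 (193 reads, 167 to 222), a Krüppel-like factor gene, Meis1 (192, 166 to 221), Zfhx2 (176, 151 to 204), Fosl2 (165) and Pou3f3 (163, 139 to 190). Spop and Slain2 followed with 153 each, and the islands past the end of Tex44 and before the start of Sde2 tied at 151 (128 to 177). Densities of these other 10 islands lay between 5.46 and 7.95. After Meis1, the widest on the autosomes was that at Sox18, at 6200 bp. The highest densities, 14 at Cap1 and at Ncoa7, came from narrow islands of 800 and 400 bp with 56 and 28 reads.

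Just inside the inner limit lay the islands at Slain2 (midpoint 1001 bp from the gene) and Nop56 (1003 bp, 81 reads), and just outside it those at Plcl2 (990 bp, 107 reads) and Sucnr1 (991 bp, 99 reads). At the outer limit the members were Cavin4 (9936 bp, 73 reads) and Wnt2 (9974 bp, 69 reads), and the islands left out Fosb (10033 bp, 64 reads) and Gk2 (10058 bp, 86 reads).

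The rate of Brg1 islands was similar through the flanks and beyond them. Per Mb of sequence outside genes and lncRNA ends, there were 1.78 islands at 1 to 2 kb (Poisson 1.33 to 2.32, 54 islands), 1.56 at 2 to 5 kb (1.30 to 1.87, 122 islands) and 1.35 at 5 to 10 kb (1.132 to 1.598, 135 islands). The flanks as a whole had 1.49 per Mb (1.33 to 1.67), and sequence further out had 1.43 at 10 to 20 kb (1.24 to 1.65) and 1.54 at 20 to 50 kb (1.38 to 1.71). These intervals overlap throughout. Within 1 kb of a gene, still outside it, the rate was 10.3 (9.28 to 11.5). The island nearest to Gm9631, which lies past the outermost protein-coding gene of chromosome 11, is in none of these rates.

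Flanking islands lay on both sides of genes, with no excess on the start side. Strand, taken from the RefSeq promoter table, was known for the flanked gene of 249 of the 312 islands, and 115 of these (46.2%, Wilson 40.1 to 52.4) lay before the start and 134 past the end. Gene-end islands were far more one-sided: 1021 of 1108 (92.2%, Wilson 90.4 to 93.6) were at the start. The change came within the first kb. On the start side the rate outside genes fell from 18.9 islands per Mb within 1 kb (16.6 to 21.4) to 1.71 at 1 to 2 kb (1.06 to 2.61). On the end side it was 2.04 (1.35 to 2.94) and 1.67 (1.02 to 2.58). The sides do not offer equal sequence: over 1 to 10 kb the start side had 87.54 Mb and the end side 78.36 Mb. Per Mb the start side had 1.30 islands (1.07 to 1.56) and the end side more, 1.71 (1.43 to 2.03). These intervals overlap, and the difference was not tested. Reads did not separate the sides: the median was 67 before starts (63 to 73) and 66.5 past ends (59 to 73).

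**Figure D2:**
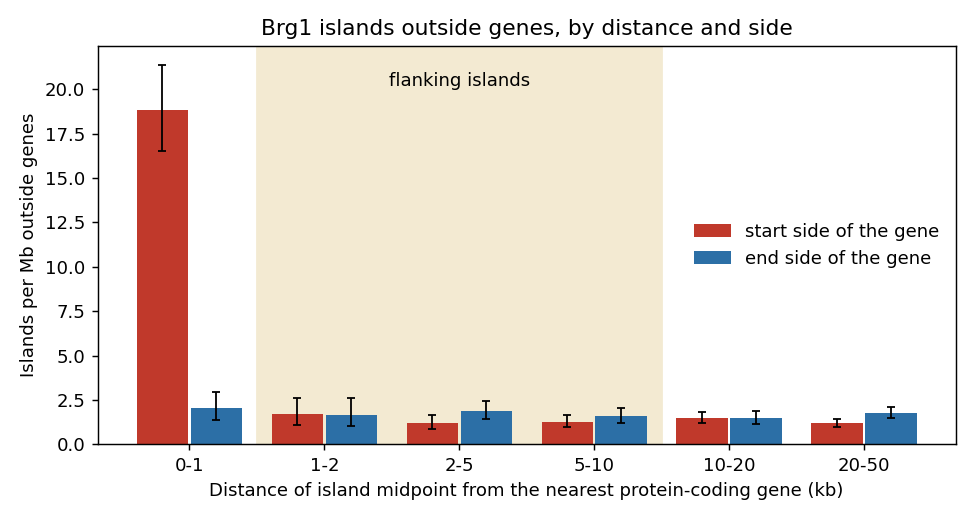
Bars give islands per Mb of sequence outside genes, by distance of the island midpoint from the nearest protein-coding gene in kb and by side of that gene, with exact Poisson 95% intervals; the shaded bins hold the flanking islands. The start side falls from 18.9 to 1.71 per Mb after the first kb, and all later bars lie between 1.20 and 1.86.

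The intergenic stretches that held flanking islands had a median length of 40.2 kb (interquartile range 20.2 to 92.9, n = 311), and 250 of the 312 islands had a single protein-coding gene with an end within 10 kb. Where the strand of the genes on both sides was known (210 islands), 21.9% lay between divergent starts, 55.2% between genes in the same direction and 22.9% between convergent ends. Over all 11306 such stretches longer than 2 kb, each counted once whatever its length, the shares were 21.6, 58.6 and 19.8%. These are shares of stretches and not of the sequence where a flanking island can lie. A lncRNA gene body contained the midpoint of 48 flanking islands. Counting any overlap, 52 of the 312 (16.7%, Wilson 12.9 to 21.2) overlapped a lncRNA gene, against 984 of 5415 other islands (18.2%). Among the 52 were both islands of Pou3f3 and those nearest to Klf9, Lhx1 and Zic2, named below.

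Flanking islands often had company. Another island lay within 20 kb, edge to edge, of 142 of the 312 (45.5%, Wilson 40.1 to 51.1), against 18.9% of gene-end islands, 34.5% of islands further inside genes and 28.6% of islands over 10 kb from genes. For islands at lncRNA ends it was 40.6% (33.9 to 47.7), an interval that overlaps that of flanking islands. Over these 142, the nearest other island was a gene-end island in 47, an island inside a gene in 39, another flanking island in 24, an island over 10 kb from genes in 21 and one at a lncRNA end in 11. It had the same nearest gene in 113. The neighbours were close: 79 flanking islands (25.3%, Wilson 20.8 to 30.4) had one within 5 kb and 36 within 2 kb. No pair of islands in the list was closer than 800 bp. When islands were merged across gaps of up to 5 kb, a setting chosen after seeing the data, the share with another island within 20 kb was 26.4% (21.6 to 31.8), and 20.7% in islands over 10 kb from genes and 24.7% inside genes. It was then higher at lncRNA ends, at 30.3% (24.0 to 37.5), with overlapping intervals. Counting only neighbours away from gene ends, the share was 33.0% (28.03 to 38.4), against 31.3% for islands inside genes, 26.6% for islands over 10 kb from genes (24.2 to 29.1) and 35.9% for islands at lncRNA ends (29.5 to 42.9).

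**Figure D3:**
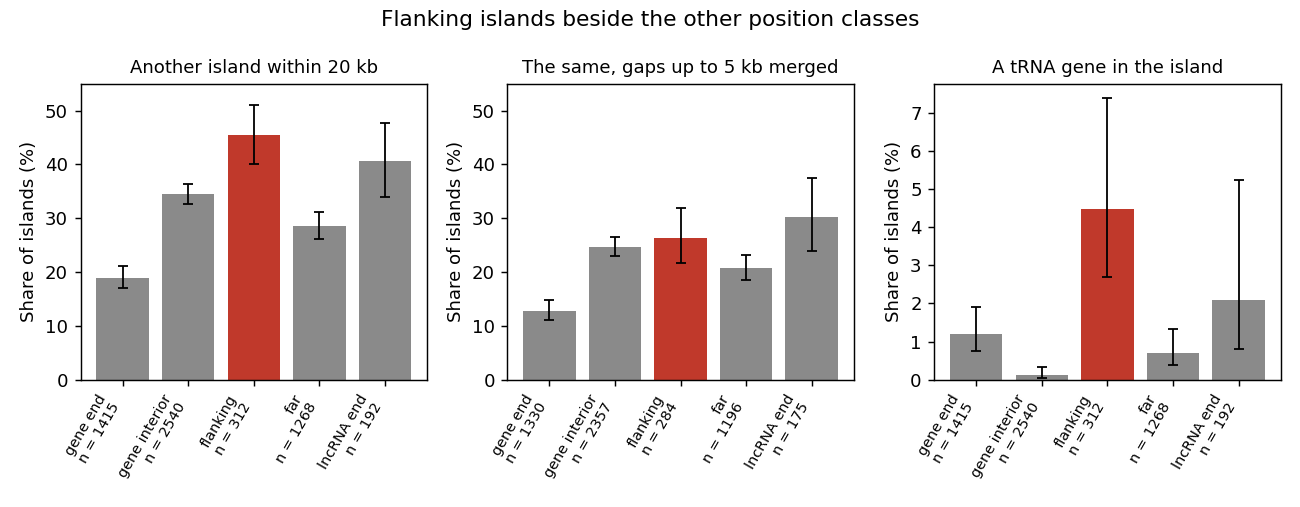
Bars show, for the 5 position classes, the share of islands in percent with another island within 20 kb, the same after merging islands across gaps of up to 5 kb, and the share overlapping a tRNA gene. Lines are Wilson 95% intervals. Flanking islands (red) stand highest in the left panel at 45.5%, are at 26.4% once merged, below the 30.3% at lncRNA ends, and overlap tRNA genes in 4.49%.

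Of 21631 protein-coding genes, 296 were the nearest gene of a flanking island (1.37%), and 363 had one within 10 kb of an end (1.68%). A larger share of these 296 flanked genes carried other islands than of genes at large. A gene-end island was present at 51 (17.2%, Wilson 13.35 to 21.9) against 7.33% of all protein-coding genes, and an island further inside at 71 (24.0%, Wilson 19.5 to 29.2) against 7.89%. Flanked genes were longer, with a median of 23.5 kb against 17.3 kb, so the shares are also given by length. Of flanked genes up to 10 kb long, 32.9% had a gene-end or interior island (Wilson 23.6 to 43.9), against 5.66% of those not flanked. Among genes over 100 kb the shares were 64.2% (Wilson 50.7 to 75.7) and 38.1%. With islands merged as above, 8.24% of flanked genes had a gene-end island, against 6.94% of all genes, while 20.1% had an interior one, against 7.84%. Merging joins a gene-end island to a flanking island within 5 kb and moves the midpoint. The lower gene-end share thus follows in part from the setting.

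Granule neuron lineage regulators were the list with the largest share of flanked genes. Of 37 such genes, 10 were flanked (27.03%, Wilson 15.4 to 43.0), by 13 islands, beside the 1.37% of all protein-coding genes. That interval overlaps those of other lists, among them the stem and glial and the immediate early genes below. Other islands were also frequent at the 37 genes: 10 had a gene-end island and 11 an interior one. Over all protein-coding genes those shares were 7.33% and 7.89%, so islands at these genes were not particular to the flanks. The lists were drawn up with earlier results of these data known, and no test was made. Meis1, a homeobox gene, had 3 flanking islands. Those of 192 and 59 reads lay past its end, 1.0 kb apart, and one of 110 reads before its start, 0.8 kb from a gene-end island of 173 reads. Atoh1, the bHLH factor that specifies the lineage, had a flanking island of 76 reads (59.9 to 95.1) past its end (chromosome 6, 64732007 to 64735006), 1.6 kb from the one of 89 reads at its start. Neurod1, a bHLH factor of differentiating granule neurons, had one of 64 reads before its start, 1.4 kb from an island of 123 reads over the gene. Nhlh1 (66 reads) and Lhx1 (82 reads) showed the same arrangement, with gene-end islands 0.8 and 1.2 kb away.

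Spacing differed among the other regulators. Nhlh2 had an island of 108 reads past its end, 12 kb from the gene-end island. Neurod2 had 1 of 61 reads past its end with its nearest other island 331 kb away. Uncx, a homeobox gene, had 1 flanking island on each side, of 112 reads before its start and 134 past its end, and no island at its ends or inside it. Zic2 and Zic5, zinc-finger genes that stand next to each other, were flanked by islands of 143 and 116 reads (chromosome 14, 122471179 to 122475178 and 122454979 to 122459378). The Zic5 island lay 0.8 kb from an island of 156 reads at a lncRNA end, and the Zic2 island had its nearest other island 5.0 kb away. After merging islands across gaps of up to 5 kb, 6 of the 10 genes counted as flanked (Lhx1, Meis1, Neurod2, Nhlh1, Nhlh2 and Uncx). Atoh1, Neurod1, Zic2 and Zic5 did not. At Lhx1 and Nhlh1 the flanking island was joined to the gene-end island, and the merged island covered the start. These genes counted by the midpoint of the merged island, not by a separate flanking island.

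**Figure D4:**
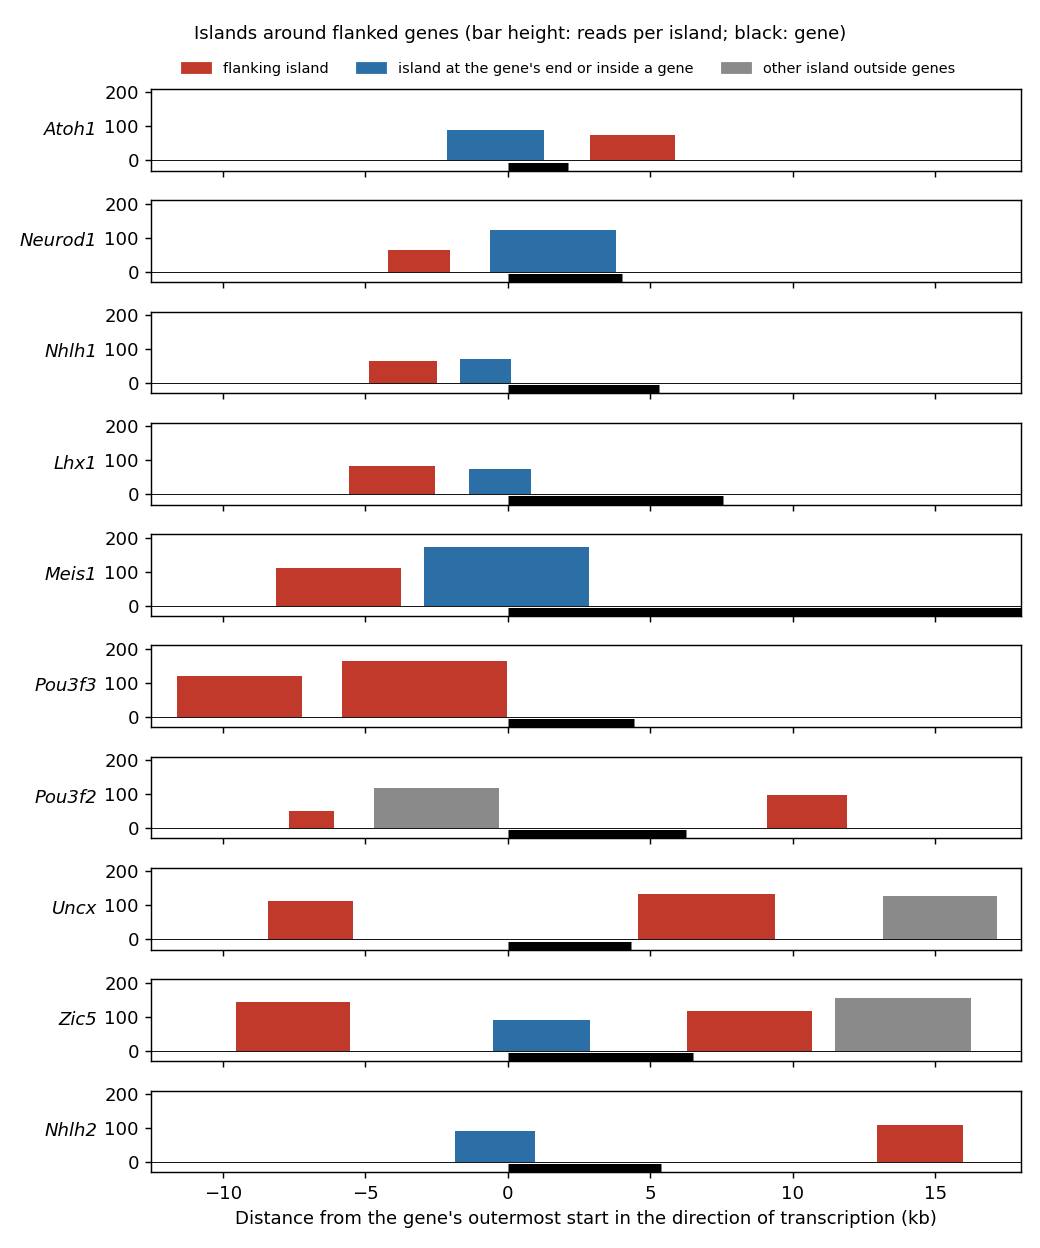
Each row shows the islands around 1 flanked gene with known strand, by distance in kb from its outermost start in the direction of transcription; bar height is reads per island, bar width is island width, and the black bar is the gene (Meis1 runs past the edge). Flanking islands, red, lie beside a gene-end or gene-body island (blue) at Atoh1, Neurod1, Nhlh1, Lhx1 and Meis1. They lie without one at Pou3f3, Pou3f2 and Uncx. The Meis1 islands of 192 and 59 reads, past its end, are beyond the plotted range and not drawn. The left red bar in the Zic5 row is the island nearest to Zic2.

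Stem and glial progenitor genes were flanked in 5 of 37 (13.5%, Wilson 5.91 to 28.0), beside 1.37% of all protein-coding genes. The POU homeobox genes Pou3f3 and Pou3f2, regulators of neural progenitors and upper-layer neurons, had 2 each. At Pou3f3 they held 163 and 121 reads and lay in a row before the start, the nearer one ending 13 bp from the gene. At Pou3f2 one of 51 reads lay before the start and one of 96 past the end, with an island of 117 reads at a lncRNA end between the former and the gene. Msi2, which encodes an RNA-binding protein of stem cells, had an island of 75 reads past its end. Sox1 had one of 48 and the astrocyte filament gene Gfap one of 47, 2.8 and 0.8 kb from another island. Of these 37 genes, 5 had a gene-end island and 9 an interior one, against 7.33% and 7.89% of all protein-coding genes. Islands at this list were thus not particular to the flanks.

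Immediate early and stress genes, which are induced within minutes of a stimulus, were flanked in 6 of 40 (15%, Wilson 7.06 to 29.1), beside 1.37% of all protein-coding genes. Fosl2 led with 165 reads, followed by Egr3 with 101 (82.3 to 123), Ier2 with 92 (74.2 to 113) and Ier5 with 87 (69.7 to 107). The islands of Fosl2, Egr3 and Ier2 overlapped the gene. Nr4a1 had an island of 75 reads 7.53 kb before its start, and Fos one of 60 reads 8.98 kb past its end, besides one of 80 at its start. Of the 40 genes, 14 had a gene-end island and 6 an interior one, against 7.33% and 7.89% of all protein-coding genes. Here too islands were not particular to the flanks.

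Genes of bHLH, E and Id proteins were flanked in 3 of 36 (8.33%, Wilson 2.87 to 21.8), beside 1.37% of all protein-coding genes. The gene of Id2, an inhibitor of bHLH factors, had an island of 103 reads (84.1 to 125) 4.04 kb before its start (chromosome 12, 25098536 to 25101735), with its nearest other island 455 kb away. Bhlhe22 had one of 74 reads and Olig3 one of 70. Cell cycle and Myc network genes were flanked in 3 of 50 (6%, Wilson 2.06 to 16.2), beside the same 1.37%. Ccnd1, a D cyclin through which Hedgehog signalling drives division, had an island of 131 reads that overlapped the gene, besides a gene-end island. The midpoint of the former lay 2.16 kb away (chromosome 7, 144939696 to 144944295). Aurkb, a mitotic kinase gene, had one of 86 and Max, the dimer partner of Myc, one of 52. Among BAF and other chromatin regulators 3 of 57 were flanked (5.26%, Wilson 1.81 to 14.4), again beside 1.37%. Chd7, a remodeller gene with 5 islands inside, had flanking islands of 74 and 46 reads, 1 on each side. Arid1b, a BAF subunit gene, had one of 65 and Ezh1, a Polycomb methyltransferase gene, one of 61. Gene-end islands were present at 8 of the 36 bHLH, 9 of the 50 cell cycle and 16 of the 57 chromatin genes, against 7.33% of all. Interior islands were present at 4, 7 and 14 of them in that order, against 7.89% of all.

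The remaining lists had 1 or 2 flanked genes each, and their intervals include the 1.37% over all genes. Flanked neuronal genes were 2 of 48 (4.17%, Wilson 1.15 to 13.98), the tubulin gene Tubb2b with 123 reads and the semaphorin receptor gene Plxna2 with 67. Of 32 markers of other cell types 1 was flanked (3.12%, Wilson 0.554 to 15.7), the endothelial cadherin gene Cdh5 with 50 reads. Spop was the 1 of 39 Hedgehog pathway genes (2.56%, Wilson 0.454 to 13.2). Tcf7l2, a Wnt pathway transcription factor gene, was the 1 of 50 Wnt, TGF-beta and BMP genes (2%, Wilson 0.354 to 10.5), with 72 reads. Of the genes fixed by name, Zic1, Zic4, Gli1, Ptch1, Mycn, Sox2, Olig2, Barhl1 and Nfia were not the nearest gene of a flanking island. The list holds called regions only, so this does not show that Brg1 is absent there. Together 35 of 423 listed genes (8.27%) were flanked, by 41 of the 312 islands. Most genes had 1 flanking island, 12 had 2 and 2 had 3, Meis1 and Aym1. The islands of Aym1, a gene of 528 bp, held 71 and 52 reads before its start and 101 past its end. Besides those named, the genes with 2 were 4930578I06Rik, Cxxc5, Foxo6, Klhl36, Myh14, Nfasc, Rimkla and Spag9.

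Transfer RNA genes, which RNA polymerase III transcribes, lay in 14 of the 312 flanking islands, counting any overlap (4.49%, Wilson 2.69 to 7.39). The share was 1.20% of gene-end islands (0.751 to 1.92), 0.710% of islands over 10 kb from genes (0.374 to 1.34) and 0.118% of islands inside genes (0.0402 to 0.347). At lncRNA ends it was 4 of 192 (2.08%, Wilson 0.813 to 5.23), an interval that overlaps that of flanking islands. These 14 islands overlapped 29 tRNA genes, and 8 overlapped more than 1. Each tRNA gene was also placed by its own midpoint, which gives a different set. For example n-TPtgg5, in the Rnase4 island, counts as at a gene end. Placed so, 29 of the 105 tRNA genes in flanking position overlapped an island of any class (27.62%, Wilson 19.97 to 36.85), against 23 of 191 far from genes (12.04%, Wilson 8.16 to 17.4) and 24 of 49 at gene ends (49.0%, Wilson 35.6 to 62.5). At lncRNA ends it was 11 of 36 (30.6%, Wilson 18 to 46.9), and inside genes 4 of 27 (14.8%, Wilson 5.92 to 32.5). The share of tRNA genes in islands was thus highest at gene ends. The interval for the flanks overlaps those at gene ends, at lncRNA ends and inside genes but not the one far from genes. Neighbouring tRNA genes can share an island and are then not independent, so these intervals are too narrow. No difference between places is read from them.

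The tRNA-bearing islands lay beside genes of many kinds. The island past the end of the olfactory receptor gene Olfr750 (134 reads, chromosome 14, 51063126 to 51066925) held 3 tRNA genes, and the island nearest to Aurkb (86 reads, chromosome 11, 69040099 to 69042498) held 4. Others lay beside the histone genes H2ac12 (103 reads, 3 tRNA genes) and H2bc13 (49 reads, 2 tRNA genes), Rcsd1 (108 reads, 2 tRNA genes) and Trim7 (88 reads, 3 tRNA genes). The narrow, dense island at Ncoa7 overlapped 1 in part. The median density of these 14 was 7.48 reads per 200 bp, against 6.5 in the other flanking islands.

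Promoters of flanked genes were intermediate in CpG content. The ratio of observed to expected CpG in the window of the outermost start had a median of 0.706 (order-statistic 95% interval 0.643 to 0.768) over the 237 flanked genes with a RefSeq promoter. It was 0.586 (0.575 to 0.595) over all 17274 protein-coding genes with one and 0.834 (0.819 to 0.848) over 1210 genes that had a gene-end island and were not flanked. The median GC content was 60.7, 56.3 and 64.2%. Genes flanked on the start side (0.714, 0.634 to 0.798, n = 112) and on the end side (0.697, 0.580 to 0.768, n = 125) had overlapping intervals.

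**Figure D5:**
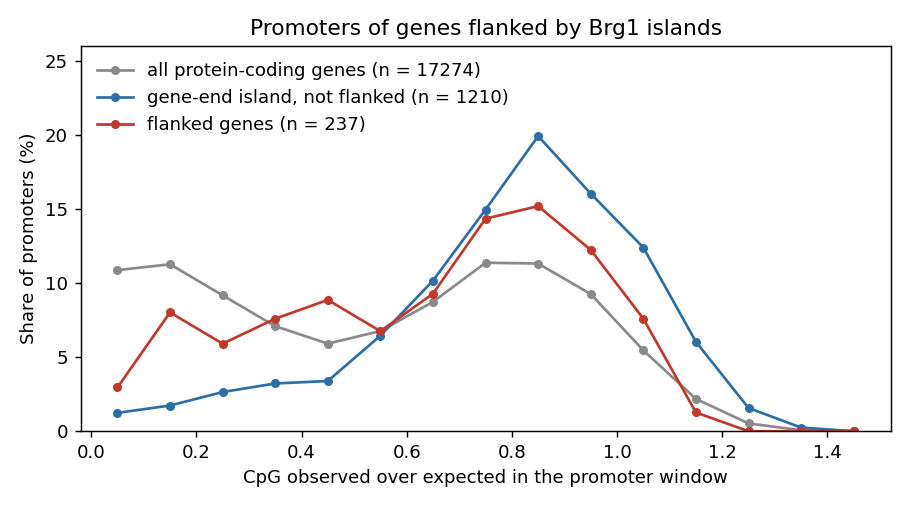
Lines give the share of promoters in percent by the ratio of observed to expected CpG in a 300-base window at the outermost start, for all protein-coding genes (grey), genes with a gene-end island that were not flanked (blue) and flanked genes (red). The median of flanked genes, 0.706, lies between the other medians, 0.586 and 0.834, while the lines themselves cross.

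The same windows were searched on both strands for 10 short motifs. The SP/KLF motif CCCGCCC was in 41.4% of flanked genes' promoters (Wilson 35.3 to 47.7), 34.4% of all and 53.8% of those with gene-end islands. The E-box CAGCTG was in 19.0% (14.5 to 24.5) against 15.2% of all, and CAGATG in 15.6% (11.5 to 20.8) against 14.7%. The AP-1 motif TGANTCA was in 3.80% (2.01 to 7.06) against 7.09%, the ETS motif CCGGAAGT in 3.80% against 5.34%, the SOX motif ATTGTT in 6.33% against 9.33%, the homeobox motif TAATTA in 2.53% against 4.61% and the MEIS/PBX motif TGATTGAC in 1.27% against 0.834%. The GLI motif GACCACCCA was in none of the 237, where the Wilson upper bound is 1.59%, and in 0.179% of all. The NFI palindrome was likewise in none and in 0.0405% of all. Where flanked genes also had a gene-end island (n = 41), the E-box CAGCTG was in 36.6% (23.6 to 51.9), and in 15.3% of the 196 without one, a split chosen after its value was seen. Most flanking islands do not contain these windows, so the motifs describe the neighbouring promoters and not the bound DNA.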

How the data were processed

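Of the series' samples, 1 Brg1 ChIP-seq library has an island list here; the input is not analysed here. SICER 1.1, Bowtie 0.12.7 and Picard 1.127 stand in the submitters' processing notes, as do 2 builds, mm10 and mm9, with no roles. Their window, gap, thresholds and use of the control were not given in the sources used here, which name no filter either. The authors' deposited list gives each island's position and a whole number taken, from its values, as its read count; it is not scaled for depth, and the library's total depth is unknown. In 5724 of 5727 islands the width is a multiple of 200 bp.

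Coordinates are 1-based on mm10 and genes are RefSeq GRCm38.p6 (21631 protein-coding genes). Strand and promoter sequences came from RefSeq for the genes matched there by identifier. No genome sequence was used, so the planned motif search in the sequence of the islands themselves was not run. Distances run from the midpoint to the nearest gene end, and gaps between islands from edge to edge. Rates divide islands by the bases that meet the same rule. Shares carry Wilson and reads exact Poisson intervals at 95%; medians carry order-statistic intervals. Python 3.11.15, pandas 2.3.3 and scipy 1.17.1 were used, and the code was tested on simulated chromosomes.

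Members and the 10 gene lists were chosen with earlier results of these data known. Named are the 10 members with most reads (a tie adds 1), the densest and widest, those at the limits, genes with most members, up to 4 flanked genes per list by reads, a set of fixed genes and microRNA hosts. The further genes of the granule, stem and glial and immediate early lists, and the tRNA islands, were named after their values were seen.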

Additional observations from a re-analysis of the deposited data

How the results depend on the processing

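Of 126 values recomputed under 13 alternatives, 105 stayed within the interval of the reported value or, for counts, within 1.5 times of it. Keeping islands with at least the median number of reads left 157 flanking islands, with medians of 87 reads, 3000 bp and 6.167 reads per 200 bp. Then 31.85% had another island within 20 kb, and 7.285% and 17.2% of flanked genes had a gene-end and an interior island, against 3.5% and 4.86% of all genes with the same islands. An outer limit of 5 kb gave 176 islands and one of 20 kb gave 511. With all annotated genes in place of protein-coding ones there were 493, of which 35.7% had another island within 20 kb and 0.203% a tRNA gene, since tRNA genes then count as genes. Of the 477 flanked genes, then of any type, 12.8% and 12.4% had a gene-end and an interior island. No share over all annotated genes was computed beside these, and the shares of protein-coding genes are not their match. A window of 10 or 50 kb in place of 20 kb gave 34.3% and 63.5% with another island. Merging islands across gaps of up to 5 kb, chosen after seeing the data, gave medians of 74 reads and 6.24 reads per 200 bp, 26.4% with another island, 8.24% of flanked genes with a gene-end island, and 6 flanked granule lineage regulators. Merging takes away close neighbours and joins gene-end to flanking islands, so the lower shares follow in part from the setting. The share on the start side lay between 44.4 and 49.5% under the alternatives run for it. Removing chromosome X or the tRNA-bearing islands, also chosen after seeing the data, moved none of these values. No paired analysis was possible because there is 1 ChIP library. Low read counts limit the narrow islands most, and total depth is unknown.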
